A study of Mus musculus with 2 samples.

Results

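The BCL2 family decides whether a cell under stress opens the outer membrane of its mitochondria and dies. Survival proteins such as BCL2, BCL-XL, MCL1 and A1 hold the pore-forming effectors BAK and BAX in check. BH3-only proteins such as BIM, BID, BAD and BMF bind the survival proteins, and some of them also trigger the effectors. Macrophages depend on M-CSF for survival, and loss of such a growth factor typically shifts this balance through BIM and MCL1. The 10 genes described here are Bcl2, Bcl2l1, Mcl1, Bcl2a1b and Bcl2a1d on the survival side and Bak1, Bid, Bcl2l11, Bad and Bmf on the death side. They were chosen by name, with earlier results of these data known, out of 22910 genes that could be named on the array. Of these 10 genes, 9 were measured, by 18 probes in all. No probe was matched to Bcl2a1b through its transcript accession, so no value is given for it.

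The study compared primary macrophages, derived from bone marrow monocytes and taken at day 5 of culture, with self-renewing macrophages, grown out of bone marrow and taken after passage 4. Each was measured on 1 Agilent mouse array. Both came from total bone marrow cells of C57BL/6 mice grown with 100 ng/ml recombinant human M-CSF on non-coated dishes, and the labels name no engineered allele and no further agent. The labels do not say that the self-renewing sample is a clone, and the study's methods make a mixed population the default. The age of the mice is not given in the sources used here. Values are log2 of the background-corrected intensity relative to the 75th percentile of the gene probes of the same array, which stood at an intensity of 434 in primary and 446 in self-renewing macrophages. A level of 0 therefore equals that percentile, and a difference is self-renewing minus primary, also in log2. Levels of different probes cannot be set against each other. With 1 array for each cell type there was no spread between replicates, and no test was made. Differences were described by size, with 2-fold as the threshold. For scale, the SD among probes of 1 gene, as a root mean square over 5077 genes with several probes, was 0.33 for this log2 difference.

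The identity of the cells was checked against marker lists. All 10 macrophage markers, among them Csf1r, Adgre1 and Cd68, were well above background on both arrays, with a median difference of 0.34 log2. Past 2-fold were Mertk, at 4.68-fold higher in self-renewing macrophages, and Fcgr1, at 3.39-fold lower. Of 10 neutrophil markers, 9 were on the array, with 8 well above background in primary macrophages against 4 in self-renewing macrophages. Their summed intensity was 45626 in primary and 2927 in self-renewing macrophages. The primary sum came mostly from S100a8 and S100a9 and the self-renewing sum mostly from Elane, so they weigh different genes. Of the 8, 7 were at least 2-fold lower in self-renewing macrophages, the exception being Elane at 1.39-fold lower. S100a8 and S100a9 were well above background in primary macrophages only. Of the other listed markers, Ly6g had no matched probe and Retnlg was not well above background on either array. Of 5 dendritic cell markers 4 were detected, of which Itgax was 8.93-fold and Ccr7 at least 17.7-fold lower, while Zbtb46 was 1.54-fold higher. Of 6 B cell markers 4 were detected, of which Cd79b was at least 54.4-fold lower, while Cd79a was 1.33-fold higher and Pax5 differed by -0.03 log2. T and NK cell markers, with 4 of 6 detected, summed to 1140 and 1158, mostly from Cd3e. Lower marker levels from fewer cells of a type and from less RNA per cell cannot be told apart in bulk RNA. Both samples carry the label male. On the primary array, however, 1 of 8 Y-linked genes was well above background and Xist was too, while on the self-renewing array these were 5 of 8 and no Xist, so the primary array goes against its label. With 1 array per cell type no comparison can be repeated without it. The arrays thus differ in sex-linked transcripts as well as in cell type. A difference of sex or donor cannot be told apart from one of cell type in any value below, X-linked genes included.

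Among the members, Bcl2a1d stood apart. This gene encodes a copy of A1, a short-lived survival protein whose gene is induced by NF-κB in myeloid cells. Mouse A1 comes from several near-identical genes on chromosome 9, and their regulatory sequence is shown here because the 2 highest differences of the family came from these genes. The lines below give 130 bases of each copy from the GRCm38.p6 promoter sequences of RefSeq, 5′ to 3′ on the strand of the gene. They end at the aligned start of Bcl2a1d and lie on chr9:88731851-88731980 (minus strand) for Bcl2a1d, chr9:89199099-89199228 (plus strand) for Bcl2a1b, chr9:88956790-88956919 (plus strand) for Bcl2a1a and chr9:114329895-114330024 (plus strand) for Bcl2a1c. The capitals mark GAGGAAGT, the core to which PU.1, the ETS factor of the myeloid lineage, is known to bind.
Bcl2a1d: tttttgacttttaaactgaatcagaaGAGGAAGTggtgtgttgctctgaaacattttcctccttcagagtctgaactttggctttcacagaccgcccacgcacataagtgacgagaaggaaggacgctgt
Bcl2a1b: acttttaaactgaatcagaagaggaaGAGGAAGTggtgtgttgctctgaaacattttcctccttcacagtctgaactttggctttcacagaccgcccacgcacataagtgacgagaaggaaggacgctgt
Bcl2a1a: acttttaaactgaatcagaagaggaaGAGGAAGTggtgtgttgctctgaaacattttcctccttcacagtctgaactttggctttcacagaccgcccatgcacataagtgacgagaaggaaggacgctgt
Bcl2a1c: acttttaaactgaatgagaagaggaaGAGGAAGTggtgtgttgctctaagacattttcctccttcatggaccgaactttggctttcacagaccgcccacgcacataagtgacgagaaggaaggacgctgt

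Bcl2a1b and Bcl2a1a were identical at 129 of 130 positions of this stretch, and Bcl2a1b and Bcl2a1c at 123 of 130. The sequence of Bcl2a1d aligned with that of Bcl2a1b with 1 mismatch and 12 gap positions, and it holds GAGGAA once where each of the other copies holds it 2 times in a row. Part of the gap positions comes from cutting both stretches to 130 bases, which leaves the first bases of Bcl2a1d without a partner. The annotated starts differ, since the stretch ends 44 bases before the start of Bcl2a1b and 110 bases before that of Bcl2a1c. GAGGAAGT was searched on both strands in windows of 300 bases, from 250 before to 50 after each annotated start. It was found in 1052 of 32851 promoters, or 3.20%, and in 4 of the 16 promoters listed for the 10 members, those of Bcl2a1b, Bcl2a1d, Bak1 and 1 of 2 for Bad. The windows of Bcl2, Bcl2l1, Mcl1, Bid, Bcl2l11 and Bmf did not hold these letters. Bcl2a1b and Bcl2a1d carry near-identical copies of the stretch in which the letters were marked, so their hits are not independent. The count is descriptive, and enrichment of these letters in the family was not tested.

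The level of Bcl2a1d was 1.61 in primary macrophages and 3.80 in self-renewing macrophages. It was thus 4.56-fold higher in self-renewing macrophages, at 2.19 log2, a difference larger than the 0.20 log2 that the scanner software estimated as the error of both spots together and larger than the SD between probes of a gene. Of all named genes detected on either array or both, 1.21% were as much higher or more. Bcl2a1c, a further A1 copy that is not a member, stood at -2.60 and 0.06 and was 6.31-fold higher, at 2.66 log2, or 1.93 log2 with a model-based background correction (normexp). Both probes were well above background on both arrays. As the copies are nearly identical, a probe designed on one may also bind transcripts of the others, and the 2 values cannot be assigned to single copies. No value of Bcl2a1a is given either, since no probe was matched to it. Whether each copy, Bcl2a1c included, yields a working A1 protein was not examined. A1 transcripts are also abundant in neutrophils, whose markers moved the other way, with a median of -5.22 log2 over the 8 detected, 4 of them bounds. This median was -3.01 log2 under the model-based background correction and -3.48 log2 over those markers that both arrays detected. The part of such cells in the A1 values was not tested.

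**Figure D1:**
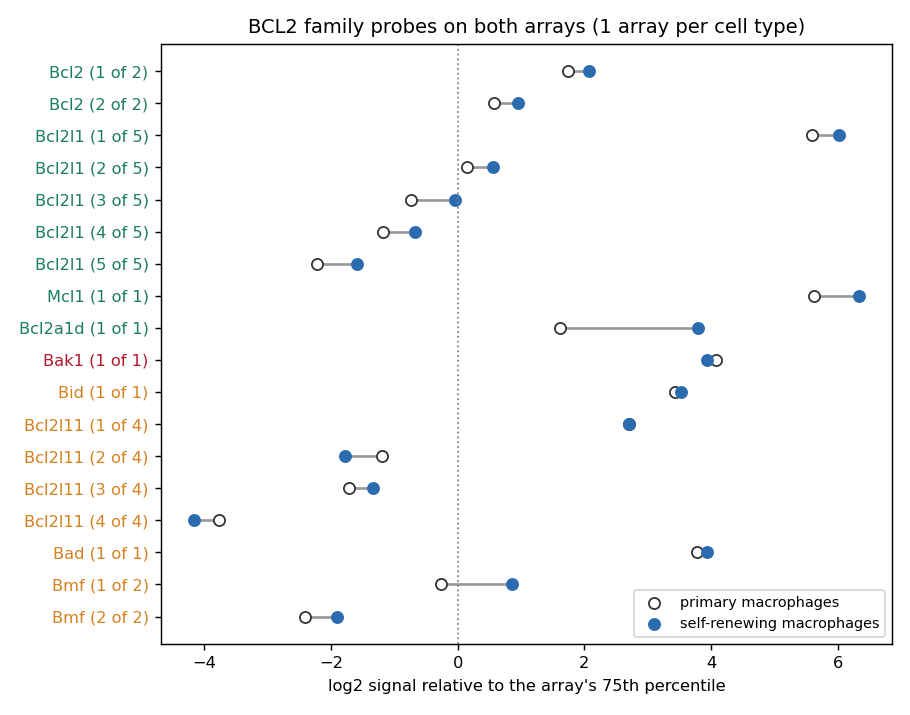
Log2 signal of the 18 probes of 9 BCL2 family genes (x axis, relative to the 75th percentile of the gene probes of each array) in primary macrophages (open points) and self-renewing macrophages (filled points), 1 array each. Probes of a gene are ordered by brightness, and label colours give survival genes (green), Bak1 (red) and BH3-only genes (orange). The filled point lies to the right for all 9 survival probes, farthest for Bcl2a1d, which moved from 1.61 to 3.80.

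The other survival genes were higher in self-renewing macrophages by less than 2-fold. Mcl1, which encodes a survival protein that is made and destroyed within hours, was at 5.62 in primary and 6.34 in self-renewing macrophages. The difference was 0.72 log2, or 1.65-fold, and 8.05% of all named genes were at least as much higher. Bcl2l1 encodes BCL-XL. Its brightest probe was at 5.60 and 6.02, 1.34-fold higher in self-renewing macrophages. All 5 Bcl2l1 probes pointed the same way, with differences from 0.41 to 0.70 log2 and a mean of 0.54 ± 0.13 (SD over probes of the same RNA, which are not replicates). Bcl2, the founding member of the family, was at 1.74 and 2.07 by the probe for 1 transcript, and at 0.57 and 0.95 by the probe for the other. These gave differences of 0.33 and 0.38 log2, or 1.26-fold and 1.30-fold. For Bcl2 the difference was close to the SD of 0.33 log2 among probes of 1 gene.

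The death genes on the member list showed smaller differences, with the exception of Bmf. Bak1 encodes a pore-forming effector of the outer mitochondrial membrane. It was at 4.08 in primary and 3.94 in self-renewing macrophages, a difference of -0.14 log2, and was the 1 member of 9 with a negative difference by its brightest probe. With the authors' scaled values its sign turned, to 0.05 log2. Bid, whose protein becomes active when caspase-8 cuts it, was at 3.43 and 3.53, a difference of 0.09 log2. Bad, whose protein is kept inactive by phosphorylation by growth factor kinases, was at 3.78 and 3.94, a difference of 0.15 log2. All of these differences were below both the scanner's error estimate of 0.20 log2 and the SD between probes.

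Bcl2l11 encodes BIM, which can bind every survival protein and is the BH3-only protein most closely tied to loss of growth factors. Its brightest probe was at 2.71 on both arrays, with a difference of 0.00 log2. The other 3 probes, each dimmer, did not move together. One on the same transcript gave -0.58 log2, and the pair designed on another transcript gave 0.38 and -0.38 log2. The SD over the 4 probes was 0.42 log2 around a mean of -0.14 log2, so the direction for Bcl2l11 was not settled by these data. All 4 probes were below 2-fold, and all were well above background on both arrays.

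Bmf was the other member past 2-fold. It encodes a BH3-only protein that is held at the cytoskeleton through a dynein light chain. By its brighter probe it was at -0.26 in primary and 0.86 in self-renewing macrophages, 2.18-fold higher at 1.13 log2, a value within the scanner's error of 0.20 log2 of the 2-fold line. Its second, dimmer probe, designed on the same transcript, was at -2.42 and -1.91 and gave 0.51 log2, or 1.42-fold. Both probes were higher in self-renewing macrophages, but the mean of 0.82 log2 was below 2-fold, as was the value of 0.99 log2 with a model-based background correction.

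Counted over the family, 2 of the 9 measured members were at least 2-fold higher in self-renewing macrophages and 0 at least 2-fold lower. Among the 15516 named genes detected on either array or both, 739 (4.76%) were higher by 2-fold or more and 1300 (8.38%) were lower by as much. With the authors' scaled values, which lift all genes by 0.19 log2, these counts were 1035 and 1069. Probe by probe, 2 of 18 member probes were past 2-fold on the higher side and 0 on the lower, against 4.65% and 7.68% of named probes. The difference was above 0 for 8 of 9 members, and for 7 to 9 under the alternatives, against 7427 of 15516 genes, and the median of the members was 0.33 log2, against -0.02 log2 for all genes. All 4 measured survival genes and all 9 of their probes were higher in self-renewing macrophages, and the genes had a median of 0.57 log2. Of these 9 probes, 5 were for Bcl2l1 alone and read the same RNA. For the 5 death genes on the member list the median was 0.09 log2, and 6 of their 9 probes were higher. Outside that list, the death genes Bax, Bbc3 and Pmaip1 were higher, at 0.96, 1.29 and 1.31 log2. Bik was at 0.15 log2, and Bok was lower, at a bound of -3.37 log2. The difference between the survival and the death genes was not tested. As the members were chosen with earlier results of these data known, these counts and medians only describe them.

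**Figure D2:**
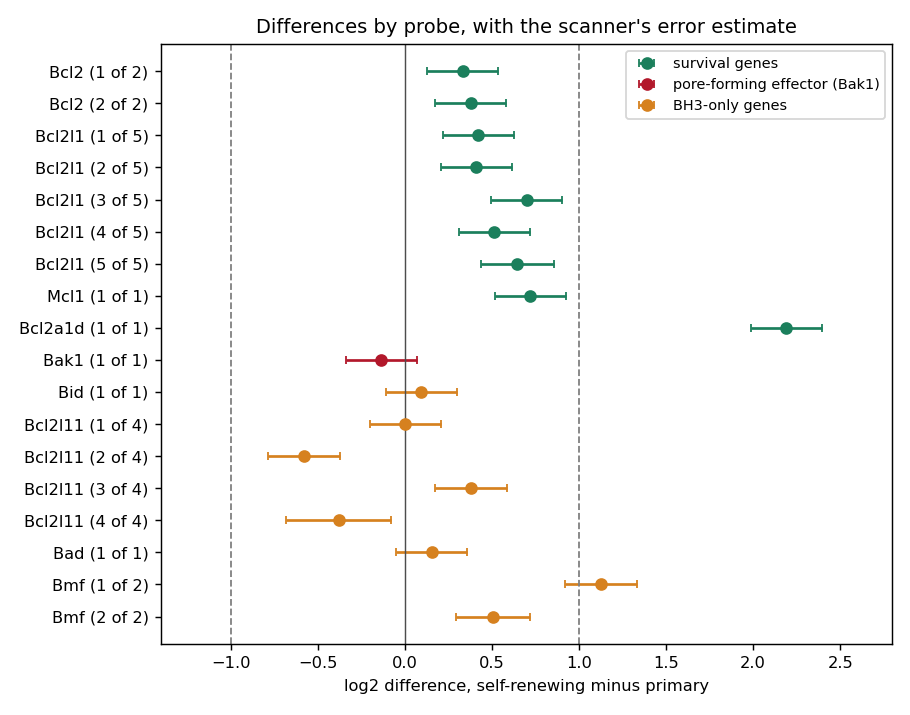
Log2 difference, self-renewing minus primary, of each of the 18 probes, coloured by role. Bars are the error that the scanner software estimated for both spots together, about 0.20 log2 for all but the faintest probe, and dashed lines mark 2-fold. Bcl2a1d at 2.19 and the brighter Bmf probe at 1.13 lie beyond the line, and the 4 Bcl2l11 probes scatter on both sides of 0.

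The other genes of the BCL2 family were taken from a list of 16, of which 15 were on the array and 11 were detected. Of these 11, 3 were past 2-fold on the higher and 2 on the lower side, with a median of 0.15 log2, which was -0.01 log2 under the model-based background correction. Those higher were Bcl2a1c, given above, Bbc3 and Pmaip1. Bbc3 encodes PUMA, a BH3-only target of p53, and was at 2.26 in primary and 3.56 in self-renewing macrophages, 2.45-fold higher. Pmaip1 encodes NOXA, a BH3-only protein that binds MCL1, and was at 1.08 and 2.39, 2.48-fold higher. Trp53, which encodes p53 and is on the list of regulators, differed by -0.31 log2. Whether p53 activity differed was not tested.

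Of the effectors, Bax was at 4.82 and 5.78, just under 2-fold at 1.95-fold higher, and its 2 probes gave 0.96 and 0.97 log2. It passed 2-fold with quantile normalization, at 1.04 log2, and with the authors' scaled values, at 1.15 log2. Bok, a relative of Bax and Bak1, was detected on the primary array alone, at a level of -1.72, and was at least 10.3-fold lower in self-renewing macrophages. Under the model-based background correction its value was -1.37 log2. Bnip3, a mitochondrial protein that promotes mitophagy and is induced by hypoxia, was at 4.07 and 2.96, 2.16-fold lower, and -0.92 log2 with the authors' scaled values. Its relative Bnip3l differed by -0.45 log2. The other detected family genes, Bcl2l2, Bik, Bcl2l12 and Bcl2l13, lay between -0.39 and 0.19 log2. Bcl2l10, Hrk, Bcl2l14 and Bcl2l15 were not well above background on either array.

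Downstream of the mitochondria, differences were small. Of 15 genes for caspases, the apoptosome and other mitochondrial death factors, all 15 were detected, 0 were past 2-fold in either direction, and 12 were lower in self-renewing macrophages, or 8 with the authors' scaled values. The median of the list was -0.23 log2. Casp9, which the apoptosome activates, was at -0.34 log2, Apaf1, the scaffold of the apoptosome, at -0.37 log2, and Casp8, the initiator downstream of death receptors, at -0.25 log2. The highest value of the list was 0.26 log2 for Htra2, a protease released from mitochondria. With the authors' scaled values the median was -0.04 log2.

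Of 11 inhibitors of apoptosis and related genes, all 11 were detected, 8 were higher and 3 lower in self-renewing macrophages, 0 were past 2-fold, and the median was 0.24 log2. Naip genes are near-identical copies, so their probes are uncertain, and Naip2, Naip5 and Naip6 are among the 8 higher. Cflar, which encodes the caspase-8 inhibitor c-FLIP, was highest at 0.95 log2, and its 4 probes ranged from 0.88 to 1.62 log2. With the mean over probes it passed 2-fold, as it did with the authors' scaled values. Birc3 and Birc2, which encode ubiquitin ligases of the TNF receptor pathway, were at 0.73 and 0.45 log2, and Xiap, a direct caspase inhibitor, was at 0.20 log2. Xaf1, an antagonist of Xiap, was at 0.76 log2 and is also among the 8 higher, so that count does not describe inhibitors alone. Birc5, which encodes survivin and is expressed mainly in dividing cells, was lowest at -0.93 log2, with -0.86 log2 by its second probe.

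Of 18 genes known to control the transcription or turnover of BCL2 family members, all 18 were detected and 0 were past 2-fold, with a range from -0.31 to 0.84 log2 and a median of 0.17 log2. The highest was Ddit3, which encodes CHOP, a stress factor that can induce Bcl2l11 and Bbc3, and which passed 2-fold with the authors' scaled values, at 1.03 log2. Nfkb1 and Rela, subunits of the NF-κB that drives A1, were at 0.50 and 0.34 log2. Spi1, which encodes PU.1, was at 0.61 in primary and 0.84 in self-renewing macrophages, a difference of 0.23 log2. Among FOXO factors, which transcribe Bcl2l11 and Bmf when growth factor signals are low, Foxo1, Foxo3 and Foxo4 differed by 0.16, 0.38 and -0.07 log2. The enzymes that set the stability of MCL1 protein showed equally small differences, with Huwe1 at -0.31 log2, Usp9x at 0.25 log2 and Fbxw7 at 0.19 log2. Protein levels were not part of these data.

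**Figure D3:**
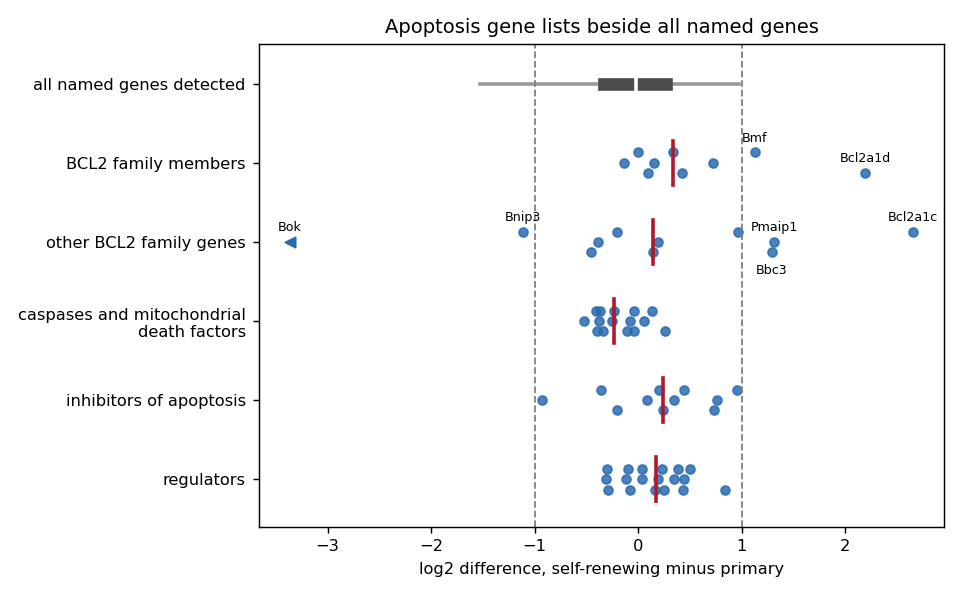
Log2 difference, self-renewing minus primary, of each detected gene (points, by its brightest probe) in the BCL2 family members and 4 further lists, with the median of each list in red and dashed lines at 2-fold. The left-pointing triangle is the bound for Bok, and the top row gives the 5th to 95th percentile (thin line, -1.53 to 0.97 log2), the quartiles (thick line) and the median (white) of 15516 named genes. Genes past 2-fold with the processing used for the report are named, and all are members or other BCL2 family genes. Among all named genes, 4.76% were higher and 8.38% lower by as much. Under some alternatives Bax, Cflar and Ddit3 also passed 2-fold, while Bmf and Bnip3 fell below it.

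Over 8 other ways of processing the arrays, all 72 values for the 9 genes stayed within 0.33 log2 of those given here. Part of these values could not differ, because every member probe was well above background on both arrays. No filter and detection on both arrays therefore returned the same values by construction. For genes with 1 probe, Bcl2a1d among them, so did the mean over probes. Bcl2a1d ranged from 2.11 to 2.38 log2 and was past 2-fold in all 8. Bmf ranged from 0.82 to 1.31 log2 and was past 2-fold in 6. Mcl1 reached from 0.70 to 0.91 log2, Bcl2l1 from 0.40 to 0.61 log2 and Bcl2 from 0.31 to 0.52 log2, all higher in self-renewing macrophages and all under 2-fold. Bak1 and Bcl2l11 were the 2 members whose sign turned under at least 1 alternative, with ranges of -0.15 to 0.05 log2 and -0.14 to 0.19 log2.

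**Figure D4:**
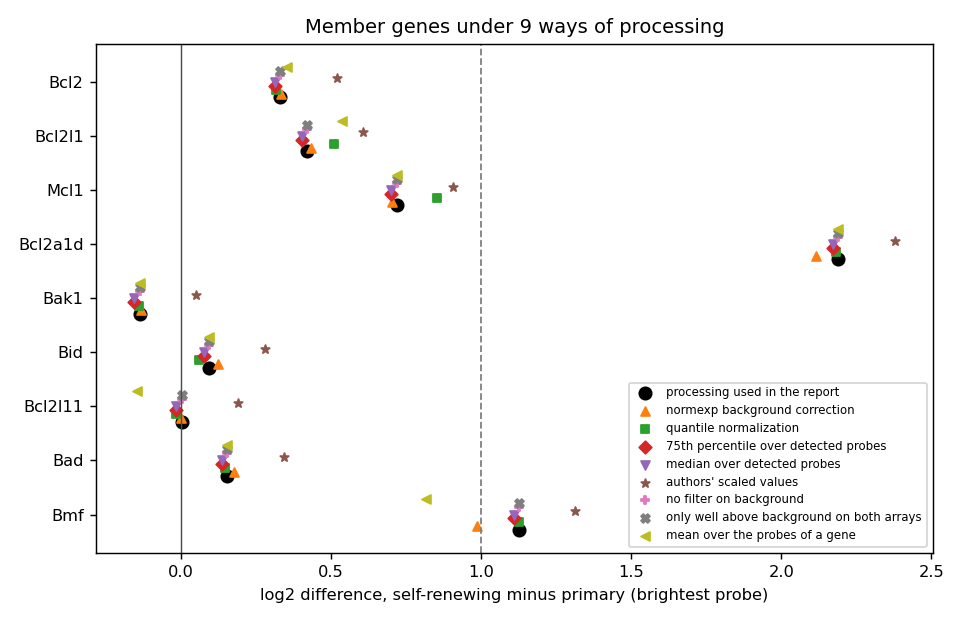
Log2 difference, self-renewing minus primary, of the 9 measured members under the processing used for the report (black circles) and 8 alternatives (other symbols), with the dashed line at 2-fold higher. Bcl2a1d stays between 2.11 and 2.38 under the alternatives, Bmf crosses the line under 2 of them, and Bak1 and Bcl2l11 lie on both sides of 0.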

How the data were processed

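RNA of primary and of self-renewing macrophages was hybridised in 1 dye to Agilent SurePrint G3 mouse arrays, 1 each, on 1 slide. The authors deposited scanner output of Feature Extraction 11.5.1.1, whose intensity values are background-subtracted and detrended within the array, and flags for spots well above background (0 or 1). They also deposited a table of the same intensity values times 1 constant per array. Their methods name GeneSpring, and how the constant was chosen is not given in the sources used here. Outlier spots, 63 per array, were left out, spots of a probe were averaged, and log2 values were set against the 75th percentile of each array. RefSeq accessions of the GRCm38.p6 assembly named 32988 of 56598 probes. The array design uses an earlier build, so no gene coordinates from that table are given.

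A gene was represented by its brightest probe among those well above background on at least 1 array. Where only 1 array was well above background, the difference is a bound against the higher of the lowest such signal on the other array and the probe's own signal there. Fold changes are descriptive. The counting code was run on simulated large changes in genes detected on both arrays, which did not exercise the bounds or the noise of real arrays. All members were to be named, and from the other lists every gene past 2-fold; further list genes named were chosen after their values were seen. The members and lists were chosen with earlier results of these data known. Alternatives were normexp (offset 50), quantile normalization, scaling over detected probes by the 75th percentile or the median, the authors' scaled values, no filter, detection on both arrays, and the mean over probes. The number of arrays limits the precision. Tools were Python 3.11.15, numpy 2.4.6, pandas 2.3.3, matplotlib 3.10.9, Biopython 1.88, R 4.3.3 and limma 3.58.1. Other assays were not analysed here.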

Additional observations from a re-analysis of the deposited data

How the results depend on the processing

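No paired analysis was possible because there was only 1 array of each kind, and no replicate could be left out. As no replicate spread was available, shifts were read against the SD of 0.33 log2 among probes of 1 gene. For medians it was divided by the square root of the number of genes (9 for the median of all genes too). This SD holds no variation between arrays or cultures, and shifts of processing are shared among genes. It is therefore only a scale for describing shifts and does not stand for replicates. The authors' scaled values lift all probes by 0.19 log2 and brought the median of all genes to 0.17 log2 and that of the members to 0.52 log2, while every other alternative shifted probes by a median of at most 0.03 log2 either way. The number of members at least 2-fold higher was 1 in place of 2 with normexp and 1 with the mean over probes, where Bmf dropped below the threshold, and 0 members were 2-fold lower under every alternative. Over all named genes, 429 were at least 2-fold higher and 750 lower with normexp, and 1192 and 2336 with no filter on background. Where both arrays had to be well above background, 782 were lower, since genes detected in primary macrophages only are then left out. Of 439 values of 55 other list genes, 3 moved by more, those of Bok and Bcl2a1c with normexp, to -1.37 and 1.93 log2, and that of Stat5a with the mean over probes, to -0.44 log2. Dim probes limit the comparison, as the offset of normexp draws low signals together by construction.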
